A study of Mus musculus with 19 samples.

Results

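The 10 genes described here, of 23284 genes in the deposited expression tables, belong to the network that holds mouse embryonic stem cells in the pluripotent state: Pou5f1, Nanog, Lin28a, Sall4, Dppa4, Dppa5a, Zfp42, Tdgf1, Utf1 and Esrrb. They were taken by name, and all 10 were found in both deposited tables. The question put to them was whether the renal grafts selected on their measured Pou5f1 values (FS002, FS003 and FS005) also carried transcripts of the other 9 genes, and because Pou5f1 chose those grafts its own values are given as a description only.

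The study reprogrammed mouse embryonic fibroblasts (MEFs) into prostate tissue. Fibroblasts that had received 4 reprogramming factors (OSKM, for OCT4, SOX2, KLF4 and c-MYC) were cultured in epithelial medium to give induced epithelial (iEpt) cells, which were recombined with rat urogenital mesenchyme and grown under the kidney capsule of nude mice for 6 weeks. RNA-seq was performed on 7 such renal grafts of C57BL/6 background, on 6 prostates of C57BL/6 mice at 6 weeks and on 6 MEF samples of C57BL/6 background. MEFs were made from E13.5 embryos. One table held 5 grafts, namely FS007, FS008 and the 3 selected on Pou5f1, with all prostate and MEF samples, and a second table, normalized separately, held the other 2 grafts (FS022 and FS023). The sample labels describe all 7 grafts alike. The study's supplementary information names the 5 grafts of the first table as iEpt cells that also received lentiviruses with prostate regulators, and it also describes grafts of iEpt cells without them. By elimination FS022 and FS023 would be grafts without these viruses, although no label says so, and the separate table and graft type cannot be told apart.

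OCT4 (the product of Pou5f1), SOX2 and NANOG bind many of the same enhancers in embryonic stem cells, and they maintain one another's expression. SALL4, ESRRB and ZFP42 (REX1) are further DNA-binding proteins of this circuit, whereas LIN28A, DPPA5A, DPPA4, UTF1 and the membrane protein CRIPTO (Tdgf1) act on RNA, on chromatin and on NODAL signalling. Most of these genes are silenced as embryonic cells differentiate, and their renewed expression from the endogenous loci is a mark of induced pluripotent stem cells. The viruses carried human OCT4 but none of the other 9 genes, and the study also used fibroblasts with an inducible OSKM transgene. The gene-level values do not separate viral, transgenic and endogenous Pou5f1, and the labels do not give the route of delivery for single grafts. The study's supplementary information reports reads on the human OCT4 coding region in FS002, FS003, FS005 and FS007 and none in FS008. Its count was higher in FS007 than in FS003. The source of the Pou5f1 signal was not tested here.

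OCT4 and SOX2 bind side by side to a composite of a SOX site and an octamer. This composite, a TTGT followed by 1 free base and the octamer core ATGCAAA, was searched on both strands in the promoters of RefSeq (GRCm38.p6, 300 bases spanning each gene start). Promoters were available for 7 of the 10 genes. The composite stood in 12 of 32851 promoters (0.0365%), both annotated Nanog promoters among them. The full octamer ATGCAAAT stood in 1.74% of promoters, including that of Zfp42, and its core, which is part of both other motifs, in 4.63%. The 2 windows are shown because they hold the only matches of the composite and the full octamer among the 7 genes with promoters available. The matched letters are in capitals. Nanog is at chr6:122707405-122707434 on the plus strand, where the composite reads as its reverse complement. Zfp42 is at chr8:43307177-43307206 on the minus strand, where the octamer is also reverse complemented.
Nanog: acagcttctTTTGCATTACAAtgtccatgg
Zfp42: tctgaagaggcATTTGCATaactgagcaag
A match describes the letters only. Of the 10 gene names with the composite, 7 were in the expression table, and they did not share a pattern: Exoc1 stood between 9.15 and 9.90 in all 7 grafts and reached 10.09 in MEFs, whereas Nanog was low in most samples, as described below.

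The deposited values were log2 values after variance stabilization. A value can be converted to reads at high levels, but at the low end the authors' transformation left a scatter, so that the 4974 genes lying below 3 in every sample had a mean of -0.09 and an SD of 1.20. Signal was therefore read against the value that corresponds to 3 reads, which lay between 1.68 and 2.05 in the 5 grafts of the first table, between 1.98 and 2.34 in prostate and between 1.88 and 2.08 in MEFs. It was higher in the shallower second table, at 3.12 in FS022 and 2.70 in FS023. Libraries of the first table held 16767291 to 26152345 reads on genes, against 6629665 and 9662059 in the second. Among prostate and MEF samples, 6 of 120 values of the 10 genes exceeded the level of 3 reads. The MEF samples FS015 to FS018 held 6.59 to 8.55 of Pbsn, a secretory gene of prostate, where FS019 and FS020 held 0.02 and 0.35, so results against MEFs are also given without those 4 samples.

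Pou5f1 (chr17:35642982-35647721, mm9) stood at 9.79 in FS002, 4.52 in FS003 and 8.96 in FS005, which corresponds to about 1471, 33.1 and 705 reads. It stood at 1.54 in FS007 and 0.81 in FS008, and in the second table at 0.02 in FS022 and 2.87 in FS023. Prostate values ran from -1.71 through a median of -0.20 to 2.29, and MEF values from -2.26 through -1.35 to 0.97. FS002, FS003 and FS005 thus lay above every prostate and MEF sample, FS007 and FS008 were below the level of 3 reads, and FS023 was just above it at about 3.47 reads. The study's supplementary information counts reads on the human coding regions of SOX2, KLF4 and MYC. Those counts were higher in FS007 and FS008 than in FS002, FS003 and FS005. In the gene-level values used here, Sox2 did not divide these 5 grafts in either direction. Sox2 lay between 9.98 and 11.01 in all 7 grafts, against at most 7.12 in prostate and 4.91 in MEFs, and the 5 grafts of the first table exceeded prostate by 3.66 ± 0.16 (SE, adjusted p = 9.84e-08) and MEFs by 6.49 ± 0.30 (adjusted p = 5.5e-08).

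Of the other 9 genes, 9 exceeded the level of 3 reads in FS002, 7 in FS003 and 9 in FS005, compared with 3 in FS007 and 2 in FS008. Over all genes the share above that level was 78.1% in FS002, 77.5% in FS003 and in FS005, 71.4% in FS007 and 69.9% in FS008, so the count in FS003 was near the share of all genes. In the second table, 3 of the 9 exceeded it in FS022 and 6 in FS023, where 68.5% and 72.5% of all genes did. Each of FS002, FS003 and FS005 stood above all the other 14 samples of the first table for 7 of the 10 genes (Pou5f1, Nanog, Lin28a, Sall4, Dppa5a, Zfp42 and Tdgf1), or 6 of 9 without Pou5f1, which the choice of grafts fixed, and for 8.59% of all 23284 genes. For Nanog and Zfp42 the margin of FS003 was small beside the scatter of low values. Nanog stood at 2.16 there against 1.97 in MEF sample FS015. Zfp42 stood at 1.33, below the level of 3 reads, against 1.13 in prostate FS010. For all 10 genes FS002 and FS005 were the highest pair of that table, a pattern held by 4.33% of all genes. These counts describe genes and grafts chosen with the data in view and were given no test.

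**Figure D1:**
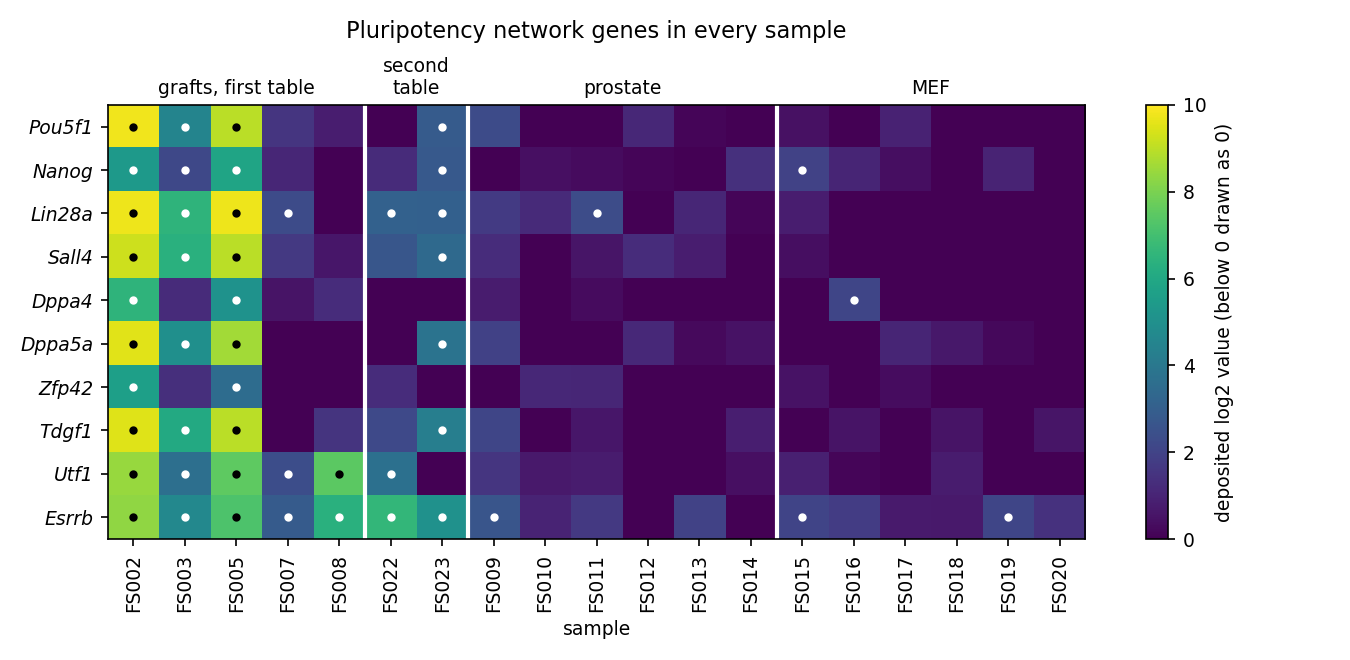
Deposited log2 value (colour, values below 0 drawn as 0) of the 10 genes in each of the 19 samples, grouped as grafts of the first table, grafts of the second table, prostate and MEFs; a dot marks a value above the level of 3 reads of that sample. FS002 and FS005 are above that level for 10 of 10 genes and FS003 for 8, whereas prostate and MEF samples hold 6 dots in 120 values. Over all genes the share above that level is 78.1% in FS002 and 77.5% in FS003 and in FS005.

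Among the DNA-binding factors, Nanog (chr6:122657507-122664651), the homeodomain protein of the core circuit, stood at 5.43 in FS002, 2.16 in FS003, 5.84 in FS005, 1.08 in FS007 and -0.14 in FS008. Its values were 1.22 in FS022 and 2.78 in FS023. Prostate ran from -0.16 through 0.21 to 1.40, and MEFs from -2.02 through 0.68 to 1.97. The signal in FS003 amounted to about 4.62 reads, so only FS002 and FS005 lay far from the other samples. The 5 grafts exceeded prostate by 2.54 ± 1.09 (SE) and MEFs by 2.55 ± 1.19, and neither difference passed after adjustment over all genes tested (limma with Benjamini-Hochberg adjustment, adjusted p = 0.0650 and 0.0791).

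Sall4 (chr2:168573832-168593443) encodes a zinc finger factor that partners OCT4 and NANOG. It stood at 9.23 in FS002, 6.36 in FS003, 8.98 in FS005, 1.65 in FS007 and 0.60 in FS008, and at 2.68 in FS022 and 3.43 in FS023. Prostate ran from -1.80 through 0.69 to 1.29 and MEFs from -1.31 through -0.12 to 0.38. FS002, FS003 and FS005 were above all other samples of the first table by more than the whole range of the prostate and MEF values, and FS008 overlapped prostate but not MEFs. The grafts exceeded prostate by 5.15 ± 1.58 (adjusted p = 0.0161) and MEFs by 5.68 ± 1.53 (adjusted p = 0.00686), and both passed.

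Zfp42 (chr8:44380422-44392363), which encodes REX1, a marker of the naive pluripotent state, had little signal outside FS002 and FS005. Its values were 5.66 in FS002, 1.33 in FS003, 3.54 in FS005, -1.05 in FS007 and -0.66 in FS008, with 1.28 in FS022 and -1.02 in FS023. Prostate ran from -1.97 through -0.18 to 1.13 and MEFs from -2.09 through -0.65 to 0.48. Only FS002 and FS005 rose above the level of 3 reads, and FS003 was barely above the highest prostate value. Zfp42 fell under the filter on low values and was not tested. Without that filter its differences of 1.84 from prostate and 2.51 from MEFs did not pass (adjusted p = 0.226 and 0.0889).

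Esrrb (chr12:87702067-87862578) encodes an orphan nuclear receptor of the naive circuit that is also expressed in some adult tissues. It was the only one of the 10 above the level of 3 reads in all 7 grafts, at 8.32 in FS002, 4.67 in FS003, 7.21 in FS005, 2.89 in FS007 and 6.35 in FS008, and at 6.62 in FS022 and 5.08 in FS023. Prostate ran from -1.22 through 1.34 to 2.62 and MEFs from 0.68 through 1.59 to 2.09. All 7 grafts lay above all 12 of these samples, and the value in FS008, a graft with Pou5f1 below the level of 3 reads, exceeded that in FS003. The grafts of the first table exceeded prostate by 4.88 ± 1.00 (adjusted p = 0.00169) and MEFs by 4.43 ± 0.87 (adjusted p = 0.000961).

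Lin28a and Dppa5a encode RNA-binding proteins. Lin28a (chr4:133559245-133574756), which blocks maturation of the let-7 microRNAs, stood at 9.75 in FS002, 6.50 in FS003, 9.75 in FS005, 2.30 in FS007 and -0.59 in FS008, and at 3.12 in FS022 and 3.08 in FS023. Prostate ran from -1.45 through 1.13 to 2.33 and MEFs from -2.68 through -1.53 to 0.80. The values of FS007, FS022 and FS023 corresponded to about 4.16, 3.0 and 4.14 reads, and FS007 and FS008 overlapped prostate. The grafts exceeded prostate by 4.72 ± 1.76 (adjusted p = 0.0391) and MEFs by 6.71 ± 1.78 (adjusted p = 0.00637). Both passed, but the call against prostate was lost without any 1 of FS002, FS003 and FS005 (adjusted p from 0.0750 to 0.0999).

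Dppa5a (chr9:78214859-78215984), a KH-domain protein of early embryonic cells, stood at 9.54 in FS002, 5.0 in FS003, 8.61 in FS005, -0.46 in FS007 and -0.76 in FS008, with -0.21 in FS022 and 3.81 in FS023. Prostate ran from -1.25 through 0.38 to 1.95 and MEFs from -1.44 through -0.15 to 1.05. FS007 and FS008 lay inside both ranges, and FS002, FS003 and FS005 lay above them. The difference of 4.13 ± 1.86 from prostate did not pass (adjusted p = 0.0779). The difference of 4.56 ± 1.84 from MEFs passed (adjusted p = 0.0470), and it did not pass without any 1 of FS002, FS003 and FS005 (adjusted p from 0.0841 to 0.120). Counting these, the call was lost in 8 of 13 alternative settings (limma, highest adjusted p = 0.262).

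Tdgf1 (chr9:110842114-110848662) encodes CRIPTO, the co-receptor through which NODAL signals. It stood at 9.53 in FS002, 6.07 in FS003, 8.95 in FS005, -1.19 in FS007 and 1.51 in FS008, and at 2.21 in FS022 and 4.28 in FS023, the last being about 10.7 reads. Prostate ran from -1.95 through 0.24 to 2.08 and MEFs from -2.37 through -0.47 to 0.55. The pattern was that of Dppa5a, with FS023 between FS003 and the remaining grafts. The grafts exceeded prostate by 4.91 ± 1.81 (adjusted p = 0.0376) and MEFs by 5.65 ± 1.82 (adjusted p = 0.0175), and the call against prostate was lost without any 1 of FS002, FS003 and FS005 (adjusted p from 0.0740 to 0.0971).

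Dppa4 and Utf1 encode chromatin-associated proteins. Dppa4 (chr16:48283848-48294405), a SAP-domain protein, stood at 6.52 in FS002, 1.23 in FS003, 5.09 in FS005, 0.54 in FS007 and 1.27 in FS008, and at -0.68 in FS022 and -1.08 in FS023. Prostate ran from -1.75 through -0.59 to 0.77 and MEFs from -2.11 through -0.78 to 2.11. Among the grafts only FS002 and FS005 exceeded the level of 3 reads, MEF sample FS016 was barely above it at about 3.30 reads, and FS003 was below FS008. The differences of 3.48 ± 1.16 from prostate (adjusted p = 0.0242) and 3.41 ± 1.23 from MEFs (adjusted p = 0.0288) passed. With values below the level of 3 reads set to it they shrank to 1.32 and 1.48 and did not pass (adjusted p = 0.196 and 0.139), and neither passed without FS005 (adjusted p = 0.0686 and 0.0770).

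Utf1 (chr7:147129688-147131011), a known target of OCT4 and SOX2, stood at 8.48 in FS002, 3.63 in FS003, 7.51 in FS005, 2.35 in FS007 and 7.48 in FS008, with 3.69 in FS022 and -0.15 in FS023. Prostate ran from -2.65 through 0.54 to 1.53 and MEFs from -1.63 through 0.02 to 0.87. FS008 reached the value of FS005, at about 198 reads, although its Pou5f1 was below the level of 3 reads, and all 5 grafts of the first table lay above prostate and MEFs. The grafts exceeded prostate by 5.86 ± 1.19 (adjusted p = 0.00156) and MEFs by 6.10 ± 1.12 (adjusted p = 0.000641).

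Across the 9 genes without Pou5f1, 8 passed the filter on low values, 6 were called higher against prostate and 7 against MEFs, and none was lower. Over all genes tested, 23.0% were called higher in grafts than in prostate (3757 of 16353, with 1683 lower) and 29.9% higher than in MEFs (4815 of 16121, with 1942 lower). In either direction, 33.3% and 41.9% were called. After quantile normalization, which moved the median difference over all genes from 0.11 to -0.12 against prostate and from 0.26 to -0.14 against MEFs, the calls were 2671 higher and 3243 lower against prostate and 3025 higher and 3641 lower against MEFs, and no difference of the 8 tested genes changed sign. The genes passed the filter through the grafts in which they were high, so the number called gives no support of its own. All 5 grafts lay above all 6 prostate samples for Utf1 and Esrrb, and above all 6 MEF samples for those and Sall4, where 19.8% and 28.4% of all genes tested did so. Without FS002 or without FS005, 3 genes rather than 6 passed against prostate. The filter on low values then left 6 genes to test without FS002 and 7 without FS005, rather than 8. Without the MEF samples FS015 to FS018, 1 gene (Utf1) rather than 7 passed against the 2 MEF samples left. The p-values measure the spread between these samples only, since nothing in the labels says whether they came from separate animals or cultures.

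**Figure D2:**
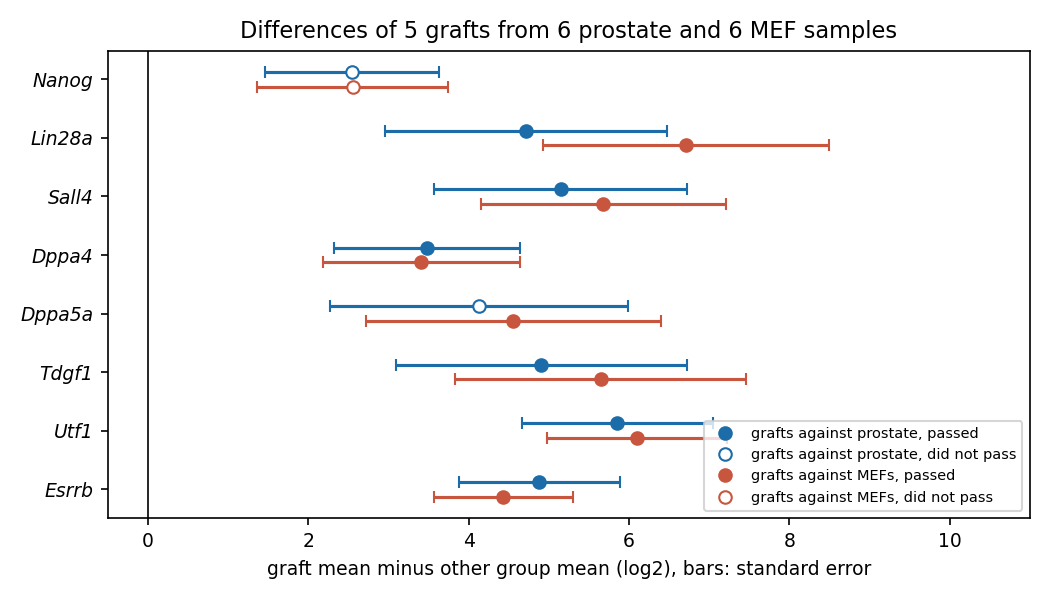
Mean of the 5 grafts of the first table minus the mean of 6 prostate or 6 MEF samples (log2, with the standard error from limma) for the 8 tested genes other than Pou5f1; filled points passed an adjusted p under 0.05 and a difference of at least 1. Nanog did not pass in either comparison and Dppa5a passed against MEFs, while Utf1 differed by 5.86 from prostate and 6.10 from MEFs.

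Within the 3 grafts with Pou5f1 signal, the genes kept a common order of grafts. All 8 genes above the level of 3 reads in FS003 were lower there than in FS002, by a median of 3.55 and a range of 2.88 to 5.26, and lower than in FS005, by a median of 3.43 and a range of 2.54 to 4.44. Dppa4 and Zfp42 were below that level in FS003, so only bounds can be given against it, of at least 4.77 and 3.92 for FS002 and at least 3.34 and 1.79 for FS005. FS002 exceeded FS005 for 8 of 10 genes, by a median of 0.87 over all 10 and a range of -0.41 to 2.13. In whole tissue, fewer cells of a type and less RNA per cell cannot be told apart.

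Detection was also compared with genes that shared the low level in prostate and MEFs. In 4695 genes no prostate or MEF sample exceeded its 3-read level, and 6 of the 10 (Pou5f1, Sall4, Dppa5a, Zfp42, Tdgf1 and Utf1) were among them. Pou5f1 chose the grafts and is left out of the counts that follow. Of the other 5, the number above the level of 3 reads was 5 in FS002, 4 in FS003 and 5 in FS005, where 23.9%, 21.6% and 21.6% of the 4695 were. It was 1 in FS007 and 1 in FS008, where 11.7% and 10.1% were, and 1 in FS022 and 3 in FS023, where 6.96% and 14.3% were. Of the 5, 3 (Sall4, Dppa5a and Tdgf1) were above that level in FS002, FS003 and FS005 and in no other sample of the first table. Over all 23284 genes, 251 (1.08%) held this pattern. It requires values at or below the level in every prostate and MEF sample. The base to set beside the 3 of 5 is therefore the 4695 genes, in which the 251 are a larger share than 1.08%.

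**Figure D3:**
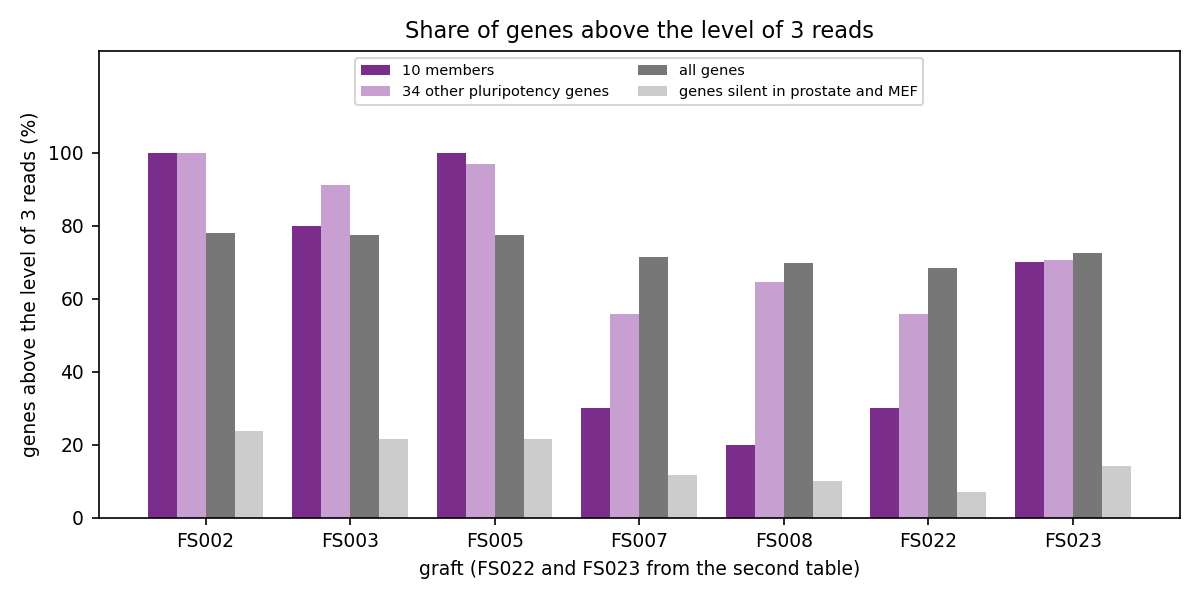
Share of genes above the level of 3 reads (%) in each of the 7 grafts for the 10 genes, 34 other pluripotency genes, all genes, and genes not above it in any prostate or MEF sample. The 10 genes reach 100% in FS002 and FS005 and 80% in FS003, and 20% to 70% in the other grafts. All genes range from 68.5% to 78.1%, and the genes silent in prostate and MEFs from 6.96% to 23.9%.

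A further 34 genes of naive, core and early primed pluripotency, listed by name, gave a broader picture. Of these, 34 exceeded the level of 3 reads in FS002, 31 in FS003, 33 in FS005, 19 in FS007 and 22 in FS008, compared with 11 to 20 in single prostate and MEF samples, so many are not restricted to pluripotent cells. Over all genes the share above that level was 78.1% in FS002, 77.5% in FS003 and in FS005, 71.4% in FS007 and 69.9% in FS008. The 34 genes were below that share in FS007 (55.9%) and FS008 (64.7%). Of the 30 tested, 18 were called higher and 1 lower than in prostate (median difference 3.49, against 0.11 over all genes), and 15 higher and none lower than in MEFs (median 2.92, against 0.26). Over all genes tested, 23.0% were called higher than in prostate and 29.9% higher than in MEFs. Each of FS002, FS003 and FS005 stood above all other samples of the first table for 14 of the 34, and for 8.59% of all genes.

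Ligands of the NODAL and FGF pathways were among them. Nodal itself stood at 6.83 in FS002, 4.65 in FS003, 6.44 in FS005, 5.57 in FS007 and 6.58 in FS008, so that FS007 and FS008 exceeded FS003, and it was higher than in prostate by 5.35 ± 0.56 (adjusted p = 1.77e-05). Gdf3, a related ligand, stood at 7.65, 6.67, 7.94, 4.50 and 5.96 in the same order and exceeded prostate by 6.51 ± 0.81 (adjusted p = 5.63e-05). Both were thus present in all 5 grafts, unlike their co-receptor gene Tdgf1.

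L1td1, an RNA-binding protein gene of embryonic stem cells, stood at 9.49 in FS002, 6.81 in FS003, 9.55 in FS005, 2.59 in FS007 and 1.54 in FS008, and exceeded MEFs by 5.66 ± 1.43 (adjusted p = 0.00478), a call lost without the MEF samples FS015 to FS018 (adjusted p = 0.0825). Pou3f1, a POU factor of primed pluripotency and of neural cells, stood at 7.11, 4.79, 7.24, 7.36 and 6.42 in the same order and exceeded prostate by 5.38 ± 0.75 (adjusted p = 0.000121). The former had the division seen for Lin28a, and the latter did not.

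The genes whose values most resembled Pou5f1 were ranked by Pearson correlation over the 17 samples of the first table, among 16606 genes, with values below the level of 3 reads set to it. These samples share the 3 grafts that set the correlation, and it is given as a description. The closest were 2410007B07Rik (r = 0.9988) and Dppa5a (r = 0.9983), followed by Lefty2 and Fgf4, which encode a NODAL antagonist and a growth factor of the inner cell mass, then Kirrel2, Foxh1 (the DNA-binding partner of SMADs in NODAL signalling), Vrtn, Olig3, Trap1a and Tdgf1 (r = 0.988), and Tmem233, Phox2a, Gzmf, Fgf8 and Neurod4. Lin28a ranked 16, Sall4 20, Nanog 45 and Dppa4 84, whereas Zfp42 ranked 291, Esrrb 373 and Utf1 652. Trap1a left the pattern in the second table, at 8.68 in FS022 and -0.50 in FS023.

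**Figure D4:**
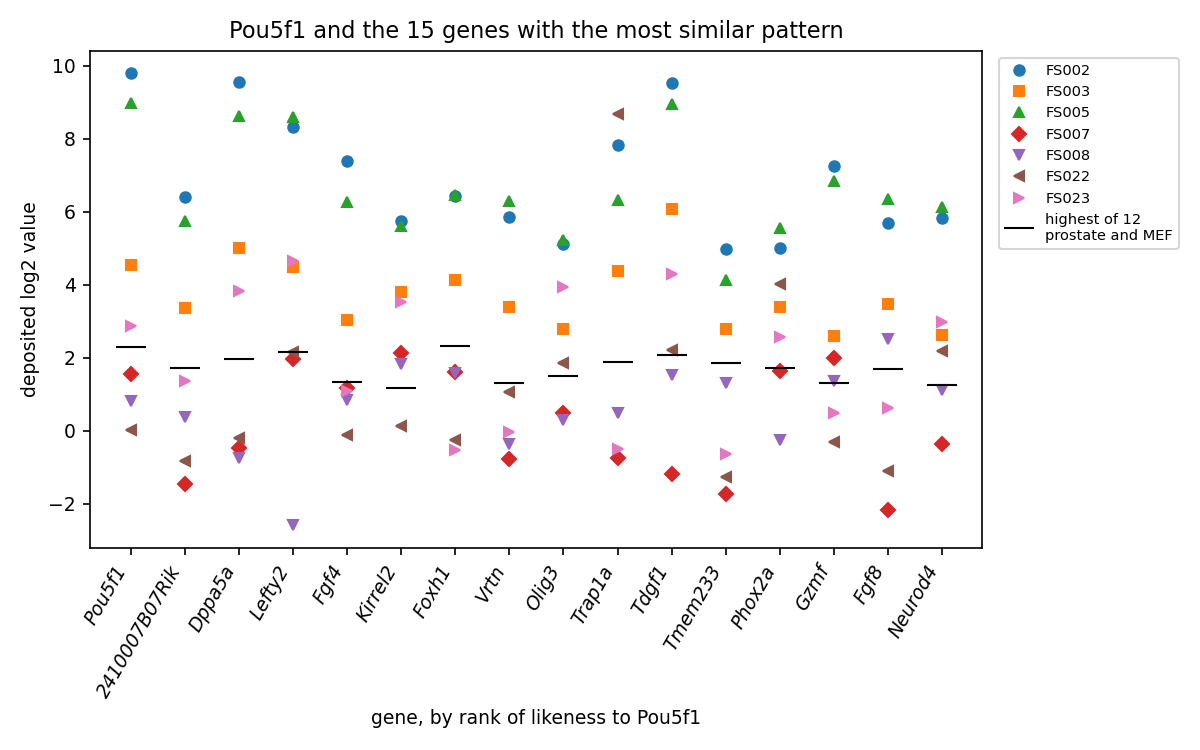
Deposited log2 value of Pou5f1 and of the 15 genes most like it over the 17 samples of the first table, with 1 symbol for each of the 7 grafts and a bar for the highest of the 12 prostate and MEF values. FS002 and FS005 lie at the top and FS003 below them in each gene, except that FS022, which did not enter the ranking, has the highest value of Trap1a at 8.68 and exceeds FS003 for Phox2a, and that FS023 exceeds FS003 for Lefty2, Olig3 and Neurod4.

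Many, but not all, markers of skeletal muscle and neural tissue were highest in the same grafts. Of 8 skeletal muscle genes, 7 were higher in each of FS002, FS003 and FS005 than in all other samples of the first table. Over all genes, 8.59% had this pattern. The summed level of the 8 (log2 of summed normalized reads plus 1) was 16.1, 15.3 and 15.5 in those grafts, 12.1 in FS007 and 10.1 in FS008, between 12.4 and 13.3 in prostate and between 8.27 and 10.4 in MEFs. Of 11 neural genes, 7 showed the same pattern. Pax6 went the other way, at 10.92 in FS007 and 11.34 in FS008 against 6.14, 5.52 and 7.54 in FS002, FS003 and FS005. Nes reached 12.59 in MEFs, above its highest graft value of 11.38 in FS005. The summed neural level was 14.1, 14.6 and 13.6 in FS002, FS003 and FS005, 11.1 in FS007 and 11.6 in FS008, between 7.42 and 8.37 in prostate and between 10.3 and 12.8 in MEFs, and Gfap, the intermediate filament gene of astrocytes, stood at 13.62, 14.34 and 12.08 against 5.23 and 4.60. In the second table the summed neural level was 13.2 in FS022 and 16.8 in FS023, and the muscle level 16.3 and 13.0, although Pou5f1 was far below the level of 3 reads in FS022 and just above it in FS023, so high values of these lists were not limited to the 3 grafts. All 8 muscle and all 11 neural genes were above the level of 3 reads in FS002, FS003, FS005, FS022 and FS023. The part of these tissues in the values of the 10 genes was not tested.

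Kidney, the host site, gave another order of grafts. The median over 11 kidney genes was 10.91 in FS002, 5.20 in FS003, 11.42 in FS005, 6.09 in FS007 and 12.33 in FS008, and 9.08 in FS022 and 4.92 in FS023. The summed kidney level was 10.4 to 17.4 in the 5 grafts of the first table, 3.45 to 6.83 in prostate and 7.26 to 8.47 in MEFs, and all 11 genes were higher in grafts than in prostate and than in MEFs. The number of the 11 above the level of 3 reads was 9 in FS007 and 11 in each of the other 4 grafts of the first table. Esrrb and Utf1, the genes that departed most from Pou5f1, were high in FS008, the graft with the highest kidney median, whereas Lin28a stood at -0.59 there. Other grafts did not follow the kidney order. FS007 had a higher kidney median than FS003 but lower Esrrb (2.89 against 4.67) and Utf1 (2.35 against 3.63). FS022, at a kidney median of 9.08, held Esrrb at 6.62 but Utf1 at only 3.69. The part of kidney RNA in the values of Esrrb and Utf1 was not tested.

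**Figure D5:**
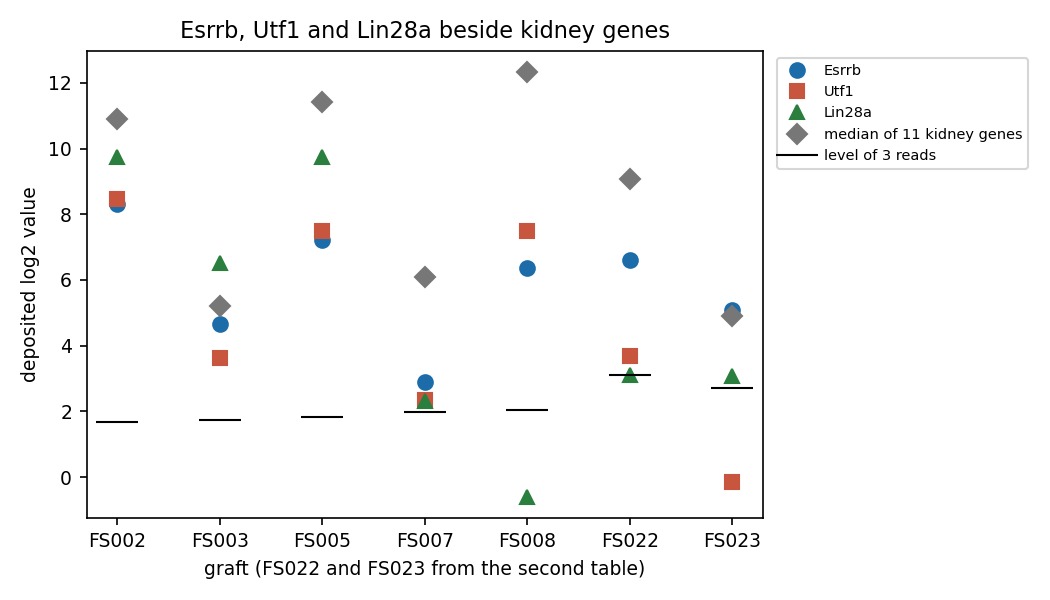
Deposited log2 value of Esrrb, Utf1 and Lin28a in the 7 grafts beside the median of 11 kidney genes and the level of 3 reads of each graft. In FS008 the kidney median is 12.33 with Esrrb at 6.35, Utf1 at 7.48 and Lin28a at -0.59, and in FS003 the kidney median is 5.20 with Esrrb at 4.67, Utf1 at 3.63 and Lin28a at 6.50. In FS007 the kidney median is 6.09 with Esrrb at 2.89, Utf1 at 2.35 and Lin28a at 2.30.

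Germ cells also express several of the 10 genes. Of 10 germ cell genes tested, 5 were called higher than in prostate and 7 higher than in MEFs, where 23.0% and 29.9% of all genes tested were. Each of FS002, FS003 and FS005 stood above all other samples of the first table for 3 of 14 germ cell genes, Dazl, Mael and Piwil2, and for 8.59% of all genes. Dazl and Mael held this pattern narrowly. Dazl stood at 3.31 in FS003 against 3.11 in prostate FS010. Mael stood at 1.10 in FS005, below the level of 3 reads, against 1.00 in FS010. FS002 and FS005 were the highest pair of that table for 4 of the 14, and for 4.33% of all genes. Ddx4, which defines the germ line, stood at 5.31 in FS002, 3.48 in FS003, 3.98 in FS005, 3.83 in FS007 and 3.49 in FS008. These grafts lay above every prostate sample, where the highest value was 2.95, whereas MEFs reached 6.91. Ddx4 was called higher than in prostate, by 2.82 ± 0.86 (limma, adjusted p = 0.0155). It was not called against MEFs (adjusted p = 0.247). The part of germ cell RNA was not tested.

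The remaining lists place these values within the tissue. All 6 epithelial genes were higher in grafts than in MEFs, where 29.9% of all genes tested were. None was higher than in prostate, and 1, Krt18, was lower (-1.71 ± 0.35, limma, adjusted p = 0.00164). All 6 fibroblast genes were lower than in MEFs, and all 5 prostate secretory genes were lower than in prostate. Over all genes tested, 1942 of 16121 were called lower than in MEFs and 1683 of 16353 lower than in prostate. Of genes of early embryonic lineages, 9 of 12 tested were higher than in prostate, where 23.0% of all genes were, and 8 of 13 higher than in MEFs, where 29.9% were, and the 3 blood and immune genes tested were higher in both comparisons. Each of FS002, FS003 and FS005 stood above all other samples of the first table for 5 of 15 lineage genes, and for 8.59% of all genes. Sox17, an endoderm and endothelial factor that was not among those 5, lay between 7.45 and 8.02 in all 5 grafts. Of the other factors delivered with OCT4, Klf4 did not pass in either comparison, and Myc was lower than in prostate by 1.31 ± 0.44 on the log2 scale (adjusted p = 0.0252) and lower than in MEFs by 1.34 ± 0.45 (adjusted p = 0.0216). FS008 carried much of this, since without it the differences were -0.77 and -0.81 and did not reach the minimum of 1 log2 unit.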

How the data were processed

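RNA-seq libraries (Illumina TruSeq) of 7 renal grafts, 6 prostate and 6 MEF samples were analysed. The submitters' processing notes name bcl2fastq 1.8.4, TopHat, Cufflinks, DESeq and the build mm9; the order of steps is not given in the sources used here. The authors deposited log2 values after DESeq normalization and variance stabilization, in 2 separately normalized tables. For values of 11.5 to 15, 2 to the power of the value was a whole multiple of a sample constant plus 1.61 (tolerance 0.05 reads), which gave reads and the level of 3 reads; below that range reads are approximate. No columns of other samples were present.

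The 10 genes and all lists were chosen with earlier results of these data known. After a filter on low values (linear mean over the samples compared of 10 or more), genes were tested with limma 3.58.1 (lmFit, eBayes with trend; R 4.3.3), separately for 5 grafts against 6 prostate and against 6 MEF samples, two-sided; a gene was called at a Benjamini-Hochberg adjusted p under 0.05 and an absolute log2 difference of at least 1. The grafts of the second table entered no test. Named genes were the 10, Sox2, Klf4 and Myc, at most 8 called genes of each list and the 15 genes most like Pou5f1. Exoc1, Astn1, Pipox, Dazl and Mael were named after their values were seen. Rhox5 and Map2, in the lists, were not found in the tables. Gene positions are from GENCODE M1 (mm9). Alternatives were a pseudocount, other filters on low values, quantile normalization, a fit over all 17 samples, limma without trend, leaving out samples, and other read levels; setting values below 3 reads to that level was chosen after seeing the data. Some label details and single-gene values are not reported here.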

Additional observations from a re-analysis of the deposited data

Results flagged for a closer look

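In a check for single samples far from the rest of their group, 3 of 39 groups had one, where chance gives about 1.95. Nanog stood at 1.40 in prostate FS014 against -0.16 to 0.42 in the other 5, still below the level of 3 reads. Sox2 stood at 7.12 in prostate FS009 against 6.64 to 6.82 in the others. Myc stood at 6.69 in graft FS008 against 9.07 to 9.67 in the other 4 grafts of the first table.

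The 2 grafts of the second table entered no comparison, yet several of the genes exceeded both the level of 3 reads (3.12 in FS022 and 2.70 in FS023) and every prostate and MEF value, although those were normalized separately. In FS023 these were Pou5f1 at 2.87, Nanog at 2.78, Lin28a at 3.08, Sall4 at 3.43, Dppa5a at 3.81, Tdgf1 at 4.28 and Esrrb at 5.08. In FS022 these were Lin28a at 3.12, Utf1 at 3.69 and Esrrb at 6.62. Pou5f1 and Nanog in FS023 and Lin28a in FS022 lay within 0.20 of the level.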

How the results depend on the processing

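For the 8 tested genes other than Pou5f1, 190 values under alternative settings kept their direction against prostate and MEFs: 155 stayed on the same side of the threshold, 26 lost the call and 9 gained it. Esrrb, Sall4 and Utf1 against prostate and Utf1 against MEFs kept their call under every alternative run (highest adjusted p 0.00955, 0.0436, 0.00829 and 0.0196). Leaving out each graft in turn gave 3 to 8 genes passing against prostate, with 3 of 6 tested without FS002 and 3 of 7 tested without FS005. Against MEFs it gave 5 to 8, and 1 passed without the MEF samples FS015 to FS018. With values below 3 reads set to that level, 6 passed in each comparison, but against prostate Dppa4 lost its call (adjusted p = 0.196) and Dppa5a gained one (adjusted p = 0.0498). After quantile normalization 4 and 5 passed. With no minimum fold change, 9093 genes passed against prostate and 10573 against MEFs. The number of the 10 genes above the level of 1 read was 5 in FS007, 4 in FS008 and 5 in FS022; above 5 reads it was 1 in FS007, 1 in FS022 and 4 in FS023; above 10 reads it was 0, 1 and 2. In FS002 and FS005 it was 10 at each level. No paired analysis was possible because nothing in the labels links a graft to a prostate or MEF sample. Depth limits the second table, where 3 reads already correspond to values of 2.70 and 3.12. Values near the level of 3 reads carry the scatter of the transformation.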
